A study of Danio rerio with 15 samples.

Results

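This account covers 10 genes of hormonal calcium and phosphate balance, found by their symbols among the 36351 genes of a zebrafish table. They are the hormone genes fgf23, stc1, stc1l, stc2a, pth1a and pth1b, the receptor gene casr, the channel gene trpv6, the transporter gene slc34a1a and the peptidase gene phex. All 10 were present with 1 entry each. They were picked with the comparison below already known, so their fold changes and p-values are given as a description of these libraries. The animals were wild-type AB zebrafish kept to 100 hours post fertilization (hpf). They were exposed through the water for 4 hours, from 96 to 100 hpf, to 50 nM TCPMOH (tris(4-chlorophenyl)methanol), to 50 nM TCPM (tris(4-chlorophenyl)methane) or to 0.01% v/v dimethyl sulfoxide (DMSO), the control. Each library was made from RNA of 8 to 10 pooled whole embryos, with 5 libraries per group. TCPM libraries were not analysed here.

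The series asks how a short exposure late in embryonic development alters gene expression. The data are the authors' DESeq2 result for TCPMOH and DMSO libraries, which gives 1 fold change per gene and no value per library. The header leaves unsaid whether TCPMOH or DMSO is on top of the fold change. With DMSO as the reference, a negative value means lower with TCPMOH than with DMSO. With TCPMOH as the reference it means higher with TCPMOH. Signs are therefore reported as deposited, and what holds under both readings is which genes lie on the same side and which on opposite sides. Whole animals were sequenced, so fewer cells of a type and less RNA per cell cannot be told apart.

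Fish hold their calcium and phosphate levels through uptake from the water by skin and gill ionocytes, handling by the kidney, and deposition in bone. Stanniocalcin, made by the corpuscles of Stannius beside the kidney, is known in fish as the hormone that restrains calcium uptake. The epithelial channel Trpv6 is the entry route for calcium in the NaR type of zebrafish ionocyte. Fgf23, known in mammals as a bone hormone that makes the kidney excrete phosphate, acts there through FGF receptors with the co-receptor Klotho and lowers sodium-phosphate cotransporters of the Slc34 family. Parathyroid hormone raises blood calcium in mammals, and the calcium-sensing receptor sets its release.

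Of the 10 genes 4 passed the authors' test: fgf23, stc2a and slc34a1a with negative values, and trpv6 with a positive one. Under either reading, a phosphate hormone gene, a stanniocalcin gene and a phosphate transporter gene were thus shifted one way and the calcium channel gene the other. The test was DESeq2's Wald test with Benjamini-Hochberg adjustment, passed at an adjusted p under 0.05. Only 6 of the 10 had enough counts to be given an adjusted p, and the other 4 (stc1, pth1a, pth1b and casr) were below the filter. Over all 19257 genes with an adjusted p, 516 passed, or 2.68%. By sign, 1.92% passed with a negative and 0.758% with a positive value, so 71.7% of the calls were negative. After a shift of 0.05 log2 units that makes the summed base means of both sides equal, 37.9% of the calls were negative. The genes were chosen from this same contrast, so nothing is read from the difference between these shares. Over all 10, values were negative in 6 and positive in 4. Of these pth1a, at -0.03, and stc1, at 0.02, lie closer to 0 than that shift.

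**Figure D1:**
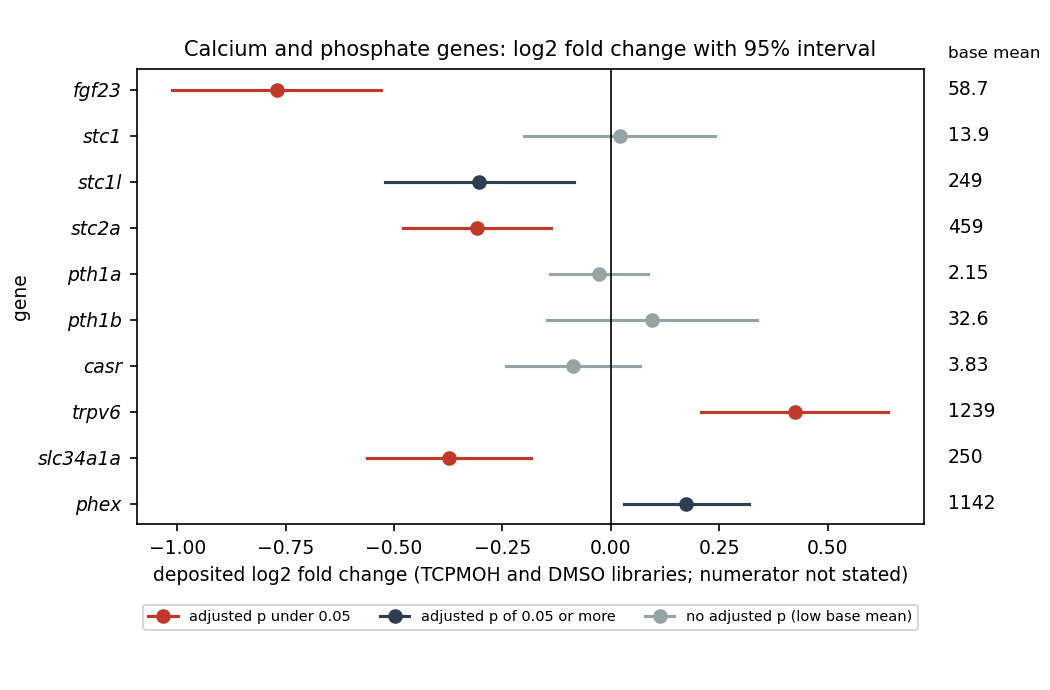
Deposited log2 fold change of the 10 genes (points) with its 95% interval (lines, 1.96 deposited SE on either side, shrinkage not undone), coloured by the adjusted p. The horizontal axis is in log2 units and the deposited base mean of each gene is printed at the right. The intervals of fgf23, stc1l, stc2a and slc34a1a lie left of 0 and those of trpv6 and phex lie right of 0, while the other 4 cross 0.

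Among the hormones, fgf23 had the value farthest from 0. The authors' deposited table gave it a log2 fold change of -0.77 (SE 0.123), a 1.71-fold difference, with an adjusted p of 1.61e-07 by DESeq2. From the deposited fold and SE, which appear shrunken toward 0, the 95% interval ran from -1.01 to -0.53 on the log2 scale. With shrinkage undone it would run from -1.77 to -0.93 or from -2.36 to -1.24, for the 2 solutions given below. Of the 19257 genes 14, fgf23 among them, had an absolute log2 fold change at least as large, and fgf23 ranked 11th from the negative end. Its reads were few. In the authors' deposited table its base mean, the mean of normalized counts over the fitted libraries, was 58.7, and the lowest base mean with an adjusted p was 49.1. Of the 1122 tested genes whose base mean was within 1.2-fold of that of fgf23, 0 had a larger absolute log2 fold change. Its SE was 1.02 times the median SE of those genes. The gene (ENSDARG00000045854) lies on chromosome 4 from 5193198 to 5195027, on the plus strand, in the coordinates of the file. It falls inside the long span of LOC101884589 on the opposite strand, an entry with a base mean of 1.94 in the authors' deposited table.

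The stanniocalcin genes stc2a and stc1l both had negative values, and stc2a passed. In zebrafish stc1l is the paralog known from the corpuscles of Stannius, and stc2a encodes a related secreted glycoprotein. In the authors' deposited table, stc2a had a log2 fold change of -0.31 (SE 0.0876; adjusted p = 0.0217, DESeq2) at a base mean of 459. That is a 1.24-fold difference. The gene spans 24215046 to 24221965 on the plus strand of chromosome 14. In the authors' deposited table stc1l had nearly the same value, -0.30, at a base mean of 249, but its larger SE of 0.111 gave an adjusted p of 0.134 by DESeq2. The 95% interval of stc2a ran from -0.48 to -0.14 and that of stc1l from -0.52 to -0.09, and the difference between the paralogs was not tested. The remaining pair lay on the positive side without passing. The authors' deposited table has stc2b at 0.16 (adjusted p = 0.615, DESeq2) and stc1 at 0.02 (SE 0.112) with a base mean of 13.9 and no adjusted p. The deposited SEs appear shrunken, and with shrinkage undone that of stc1 was 0.393 and its 95% interval ran from -0.70 to 0.84. The call of stc2a was lost with a stricter adjustment (Benjamini-Yekutieli), with an empirical null that rescales the Wald statistics and with the shift to equal summed base means (adjusted p of 0.226, 0.344 and 0.0723 from the DESeq2 statistics).

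The span of stc1l on chromosome 10 (42677891 to 42685512, minus strand) shares 6993 bp with rhobtb2b on the opposite strand. The library kit keeps strand, but the sources used here do not give whether counting used it. The authors' deposited table has rhobtb2b at 0.04 (SE 0.110). On its other flank stc1l lies 11954 bp from fgfr1b, an FGF receptor gene, which the authors' deposited table has at 0.02 (SE 0.0712).

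Both parathyroid hormone genes had few reads, and neither has an adjusted p. The base mean of pth1a was 2.15 in the authors' deposited table, which amounts to 21.5 normalized counts over 10 libraries. For pth1b the authors' deposited table has 32.6, or 326 normalized counts. Log2 fold changes in the authors' deposited table were -0.03 (SE 0.0574) for pth1a and 0.09 (SE 0.123) for pth1b, with unadjusted DESeq2 p-values of 0.628 and 0.445. The small SE of pth1a does not mean a precise value. The deposited fold changes appear to have been shrunken toward 0, and with that shrinkage undone the SE of pth1a was 1.01 and its 95% interval ran from -2.47 to 1.49 on the log2 scale. A difference in pth1a was not detectable at this depth.

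The calcium-sensing receptor gene casr, whose product sets hormone release by blood calcium, was as thinly covered. The authors' deposited table gives it a base mean of 3.83, or 38.3 normalized counts over 10 libraries, and a log2 fold change of -0.09 (SE 0.0788; unadjusted DESeq2 p = 0.270). With shrinkage undone its 95% interval ran from -2.12 to 0.59, so a difference was not detectable at this depth.

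The calcium channel gene trpv6 was the member with a positive value that passed. The authors' deposited table gave it a log2 fold change of 0.42 (SE 0.110), a 1.34-fold difference, with an adjusted p of 0.00851 by DESeq2 at a base mean of 1239. Its 95% interval ran from 0.21 to 0.64, and it ranked 27th from the positive end of the 19257 tested genes. The SE was large for a gene with so many reads, 1.54 times the median SE of the 1504 tested genes within 1.2-fold of its base mean. With shrinkage undone the SE was at least 0.150, while counting error alone would give 0.0259 at this base mean with 5 libraries on each side. On chromosome 16 trpv6 spans 12293890 to 12319831 on the minus strand (ENSDARG00000014496). It shares 579 bp with si:dkey-26c10.5 on the opposite strand, which had a value of the other sign in the authors' deposited table, -0.17 (adjusted p = 0.528, DESeq2). The call of trpv6 was lost with a stricter adjustment (adjusted p = 0.0889) and with an empirical null (adjusted p = 0.223), both from the DESeq2 statistics.

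The phosphate transporter gene slc34a1a had a negative value, on the same side as fgf23. It encodes a sodium-phosphate cotransporter whose mammalian counterpart reabsorbs phosphate in the kidney tubule. In the authors' deposited table, slc34a1a had a log2 fold change of -0.37 (SE 0.0964; adjusted p = 0.00809, DESeq2) at a base mean of 249.8. On that scale one group stood at 77.2% of the other, and the 95% interval ran from -0.56 to -0.18. The gene (ENSDARG00000028824) is on chromosome 14 from 834619 to 859237, on the minus strand. The klb gene, which encodes a Klotho-related co-receptor, lies 79.2 kb away and stood at 0.13 (SE 0.118; adjusted p = 0.679, DESeq2) by the authors' deposited table. The call of slc34a1a was lost with a stricter adjustment (adjusted p = 0.0845) and with an empirical null (adjusted p = 0.216), both from the DESeq2 statistics.

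The peptidase gene phex, whose loss in humans raises Fgf23 and wastes phosphate, lay on the positive side. In the authors' deposited table it had a base mean of 1142 and a log2 fold change of 0.17 (SE 0.0737), which did not pass (adjusted p = 0.237, DESeq2). Its 95% interval ran from 0.03 to 0.32. It spans 25404358 to 25442346 on chromosome 24, on the minus strand, and no other entry overlaps it.

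**Figure D2:**
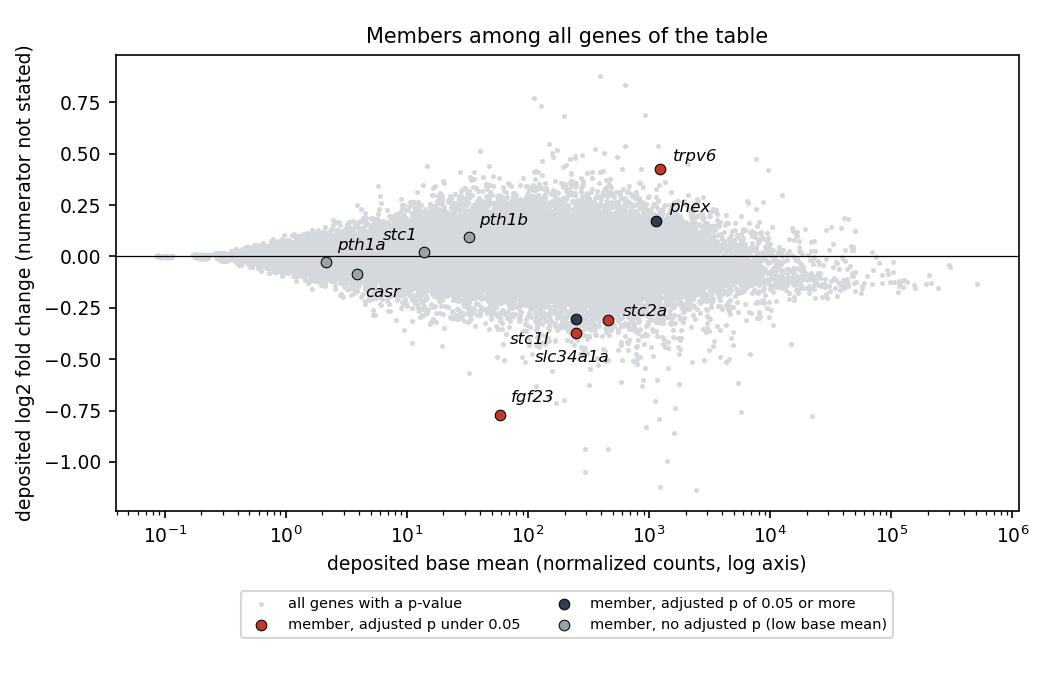
Deposited log2 fold change (vertical axis) against deposited base mean (horizontal log axis, normalized counts) for all genes with a p-value (grey) and the 10 members (coloured by adjusted p). At -0.77, fgf23 lies outside the grey cloud at its base mean of 58.7, while pth1a (2.15) and casr (3.83) lie at low base means, where the deposited values of all genes narrow toward 0.

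Precision differed greatly among the 10 genes. The deposited SE was at its highest where base means lay between 20 and 50, with a median of 0.123, and fell to 0.0245 at base means up to 1. The largest SE was 0.124. A normal prior on the fold change would give this curve, with an inferred prior standard deviation of 0.248, although no source used here states a prior. Undoing it leaves every Wald statistic and p-value as deposited, but it moves the folds away from 0. For fgf23, whose SE lies near the ceiling, it gives 2 solutions: -1.35 (SE 0.215) and -1.80 (SE 0.286), that is 2.55-fold or 3.47-fold. The other genes that passed also have 2 solutions each, -0.36 or -2.12 for stc2a, -0.46 or -2.01 for slc34a1a and 0.58 or 1.58 for trpv6. In all 4 genes both lie at or above the SE that counting error alone gives, so that floor does not tell them apart. From its peak the median deposited SE fell to 0.0821 at base means of 300 to 1000. The second solutions would have SEs before shrinkage that rise with reads. For stc2a and slc34a1a, with SEs 1.04 and 1.02 times the median at like base means, the first and smaller fold is therefore likelier. For fgf23 and trpv6, whose SE was large for its reads, the choice is less clear. If a prior was used, the deposited folds understate the differences.

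**Figure D3:**
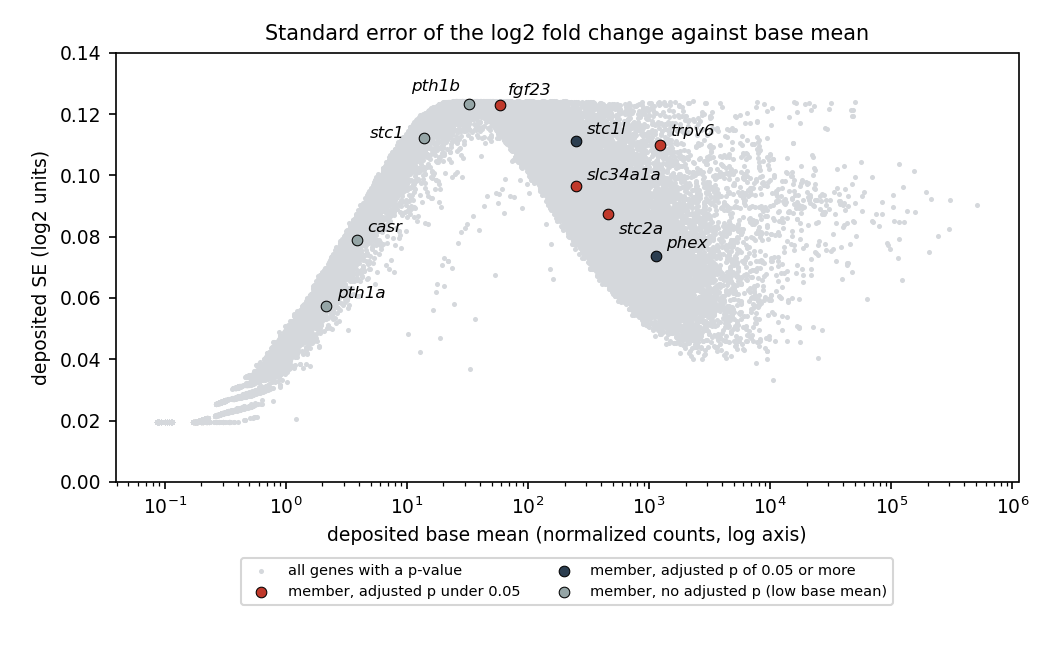
Deposited SE of the log2 fold change (vertical axis, log2 units) against deposited base mean (horizontal log axis, normalized counts), for all genes with a p-value (grey) and the 10 members (coloured by adjusted p). No SE passes 0.124. Genes left of the peak, such as pth1a (0.0574) and casr (0.0788), have small SEs, and trpv6 (0.110) sits above most genes of its base mean.

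Size factors, which scale each library, could be read from the table. Genes with a single read in 1 library take 1 base mean per library, and 1048 such genes fell on 10 distinct base means, 5 with a positive and 5 with a negative log2 fold change. A fit of 5 against 5 libraries gives that count. The size factors lay between 0.866 and 1.17, with a mean of 1.05 for the 5 libraries on the positive side and of 0.967 for those on the negative side. Which side is TCPMOH and which is DMSO cannot be told from them. Markers of tissues that make or use these hormones were present: all 16 ionocyte markers and 20 of 21 pronephros and corpuscle markers had an adjusted p. So did 13 of 15 bone and cartilage markers, although the bone gene bglap was at a base mean of 0. The like-named entry bglapl, outside that marker list, had a base mean of 62.2 in the authors' deposited table.

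Relatives of the members, grouped into families after their values were seen, mostly had values near 0. Counts by family include any member in it, and over all tested genes 2.68% passed. Among 22 fibroblast growth factor genes with an adjusted p, the median log2 fold change was -0.05 and 2 passed, fgf23 and fgf6a. After the shift to equal summed base means that median was -0.006. The gene fgf6a, a factor of muscle, was in the authors' deposited table on the positive side at 0.35 (SE 0.0843; adjusted p = 0.00321, DESeq2). Upstream of fgf23, fgf6b lies 9861 bp away on the same strand, and the authors' deposited table has it at 0.04 with a base mean of 24.1. On the other flank rad51ap1, 1442 bp away on that strand, stood at 0.13 (adjusted p = 0.682, DESeq2) by the authors' deposited table.

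Of 6 sodium-phosphate cotransporter genes with an adjusted p, slc34a1a alone passed, and 5 of the 6 had negative values. The genes slc34a2a and slc34a2b, of a type known from intestine, stood in the authors' deposited table at -0.07 and -0.10, and the widely expressed slc20a1a and slc20a1b at -0.14 and -0.15, with adjusted p from 0.492 to 0.841 (DESeq2). The second copy slc34a1b had a base mean of 12.1 in the authors' deposited table and no adjusted p. Of 3 TRPV channel genes trpv6 alone passed, and the authors' deposited table has trpv1 at 0.08 and trpv4 at 0.04. Among 9 TRPM channel genes 1 passed, trpm7, which encodes a divalent cation channel with a kinase domain. The authors' deposited table has trpm7 at -0.31 (SE 0.0715; adjusted p = 0.00177, DESeq2), and this call was lost with the empirical null (adjusted p = 0.103).

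**Figure D4:**
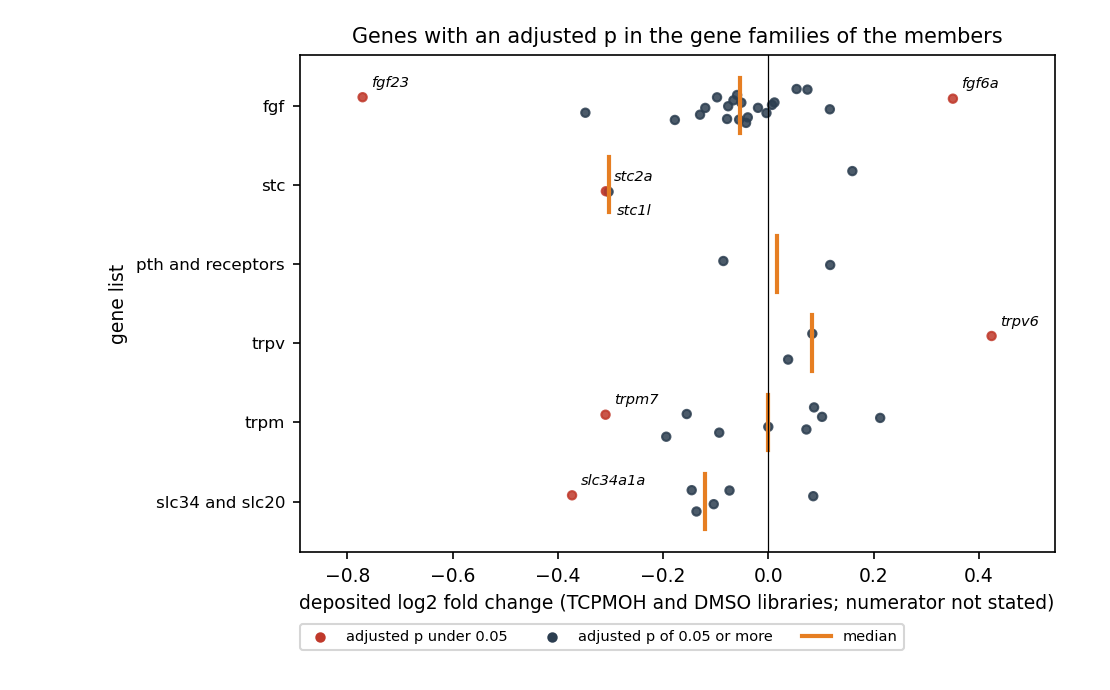
Deposited log2 fold changes (horizontal axis, log2 units) of genes with an adjusted p in 6 gene families (rows), 1 point per gene with vertical scatter for legibility, red where the adjusted p is under 0.05, with the row's median as an orange bar. In the fgf row fgf23 (-0.77) and fgf6a (0.35) lie at opposite ends, with the median at -0.05.

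Receptors and co-receptors of these and related hormones did not pass. Beside FGF, Klotho and parathyroid hormone receptor genes, the list held vitamin D receptor genes and calcr, calcrla and calcrlb of the calcitonin receptor family. These additions all had positive values, and no stanniocalcin receptor gene was tested. Of 13 genes with an adjusted p, 0 passed by DESeq2, and the median was 0.07, with 11 positive and 2 negative values. An unadjusted p below 0.05 was reached by 3: fgfr1a, fgfr2 and calcrla (0.30, adjusted p = 0.184, DESeq2). Over all tested genes 13% had an unadjusted p below 0.05, the share against which such counts are to be read. The authors' deposited table has the Klotho gene kl, co-receptor for Fgf23, at 0.04 (SE 0.118). There the FGF receptor genes stood at 0.18 (fgfr1a), 0.02 (fgfr1b), 0.18 (fgfr2), 0.06 (fgfr3) and -0.06 (fgfr4), and fgfr1a had the smallest adjusted p, 0.0663 (DESeq2). The parathyroid hormone receptor gene pth1rb was at -0.09 in the authors' deposited table, and pth1ra, with no adjusted p, at 0.14. The vitamin D receptor genes vdra (0.13) and vdrb (0.07) did not pass either.

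Of 5 other hormone and regulator genes with an adjusted p, 0 passed by DESeq2 and 0 had an unadjusted p below 0.05. Their median was 0.04, and 8 more had too few reads for an adjusted p. The authors' deposited table has pth4, a hormone gene of zebrafish neurons, at -0.12 with no adjusted p, and gcm2, a transcription factor gene of acid-secreting ionocytes, at 0.04 (adjusted p = 0.918, DESeq2).

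Of 6 vitamin D genes with an adjusted p, vdra and vdrb counted again, 0 passed by DESeq2 and 1 had an unadjusted p below 0.05, with a median of 0.01. That gene was cyp27b1, whose product activates vitamin D, and the authors' deposited table has it at -0.30 (SE 0.115; adjusted p = 0.164, DESeq2). The gene of the enzyme that breaks vitamin D down, cyp24a1, had -0.05 (SE 0.0987) there. A list of 12 tested phosphate transport genes leaves out slc34a1a but counts again the other slc34 and slc20 genes above. In it 0 passed by DESeq2 and 2 had an unadjusted p below 0.05, with a median of -0.09. The authors' deposited table has the one with the smallest p, slc9a3r1b, a scaffold gene of brush border transporters, at 0.22 (adjusted p = 0.161, DESeq2). Of 24 calcium pump, exchanger, buffer and store genes, 0 passed by DESeq2 and 2 had an unadjusted p below 0.05, with a median of 0.05. There the smallest p belonged to the exchanger gene slc8a2a, at -0.29 in the authors' deposited table (adjusted p = 0.0706, DESeq2).

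Among mineralization genes 2 of 21 passed, on opposite sides. The enpp1 gene, whose product makes the mineralization inhibitor pyrophosphate, was in the authors' deposited table at 0.24 (SE 0.0712; adjusted p = 0.0370, DESeq2). Its call was lost in 4 of the alternatives tried, with adjusted p up to 0.441. The intestinal alkaline phosphatase gene alpi.2 was at -0.47 in the authors' deposited table (SE 0.121; adjusted p = 0.00772, DESeq2), a call lost with the stricter adjustment (adjusted p = 0.0806) and with the empirical null (adjusted p = 0.213). The neighbouring alpi.1, whose span overlaps it on the opposite strand of chromosome 22, was at 0.22 there (adjusted p = 0.238, DESeq2), and how reads were divided between these like copies is uncertain. The entpd5a gene, required for bone mineral in zebrafish, was at 0.00 in the authors' deposited table (SE 0.0857). Over all 7 lists, 2 of 88 tested genes other than the members passed, or 2.27%, beside 2.68% of all tested genes.

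**Figure D5:**
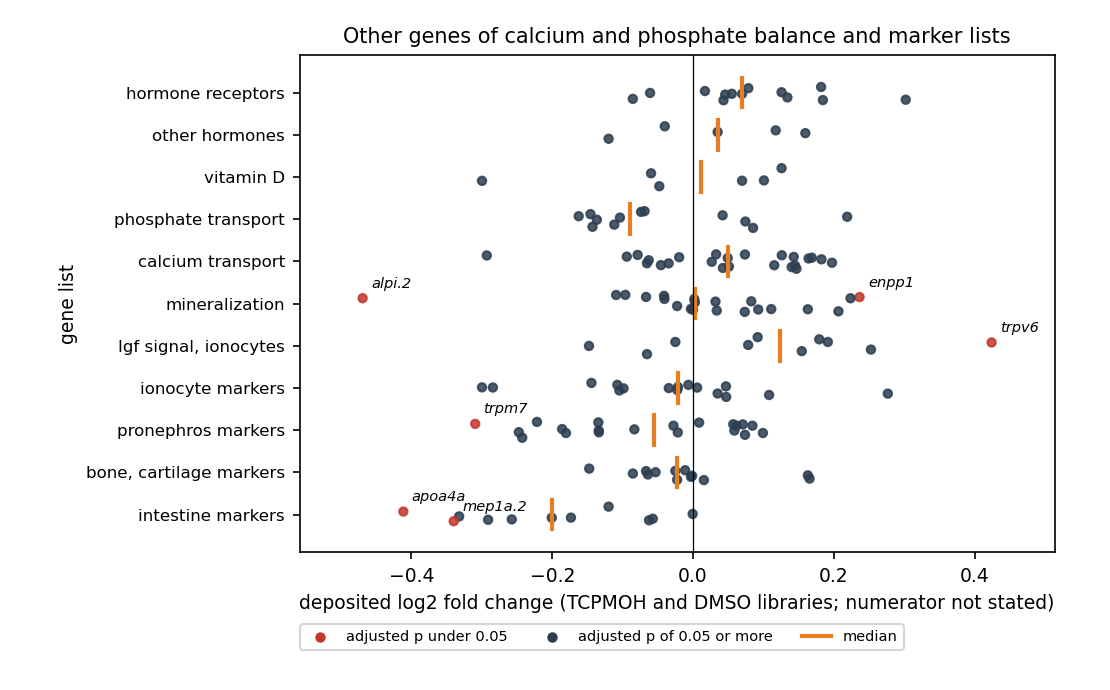
Deposited log2 fold changes (horizontal axis, log2 units) of genes with an adjusted p in 7 lists of calcium and phosphate balance and 4 lists of cell type markers (rows), 1 point per gene with vertical scatter for legibility, red where the adjusted p is under 0.05, with each row's median in orange. Most points lie near 0, and in the intestine row all 11 are negative (10 after the shift to equal summed base means) with a median of -0.20.

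Markers of the cells that make or use these hormones were set beside the members. For trpv6, 0 of 16 ionocyte markers passed by DESeq2, and 3 reached an unadjusted p below 0.05, beside 13% of all tested genes. The list is not limited to the NaR type and holds markers of other ionocytes, such as gcm2. It therefore cannot show whether NaR ionocytes themselves differed. The list's median was -0.02, and 0.03 after the shift to equal summed base means, with values from -0.30 to 0.28. A list of Igf signalling in NaR ionocytes held 10 genes, trpv6 itself among them. No gene of that list other than trpv6 passed. Its values were positive in 7 genes, trpv6 included, and negative in 3. An unadjusted DESeq2 p below 0.05 was reached by 4 of the 10, beside 13% of all tested genes. Of these 3 were positive (trpv6, igfbp5a and igf1ra, the last at 0.19) and 1 negative (igfbp5b). The authors' deposited table has igfbp5a, made by NaR ionocytes in zebrafish, at 0.25 (adjusted p = 0.186, DESeq2) and pappaa, the gene of the protease that cuts its product, at 0.18 (adjusted p = 0.573). On the negative side it has igfbp5b at -0.15 (adjusted p = 0.206, DESeq2), igf2b at -0.07 and igf2a at -0.03.

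For slc34a1a, the stanniocalcins and fgf23, whose zebrafish transcript is known from the corpuscles of Stannius, 1 of 20 pronephros and corpuscle markers passed, namely trpm7, with a median of -0.06 and values from -0.31 to 0.10. The whole list was mixed, with 12 negative and 8 positive values. After the shift to equal summed base means it had 10 of each sign and a median of -0.008. In that list 4 of 20 reached an unadjusted DESeq2 p below 0.05, beside 13% of all tested genes, and all 4 had negative values. Beside trpm7 these were cdh17 (-0.25), lrp2b (-0.18) and amn (-0.24) in the authors' deposited table, genes of kidney tubule cells. The paralog lrp2a was positive there, at 0.10. The part of the pronephros and corpuscle markers in the values of the members was not tested. For phex, 0 of 13 bone and cartilage markers passed by DESeq2 and 1 had an unadjusted p below 0.05, with a median of -0.02, or 0.03 after the shift. Intestinal markers were negative in 11 of 11 genes, and in 10 after the shift, with a median of -0.20. Of these, 2 passed by DESeq2 in the authors' deposited table, apoa4a (-0.41) and mep1a.2 (-0.34). The part of the intestinal markers in the values of alpi.2 and slc34a1a was not tested.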

How the data were processed

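The members and gene lists were chosen with earlier results of these data known. FastQC, cutadapt, STAR, featureCounts and DESeq2 are listed in the submitters' processing notes, without versions or settings. Of the genome build, nothing is said in those notes or the file. Gene models are of a V4.3.2 GTF with Ensembl 99 identifiers, per the file headers. The base mean is a signal that the authors deposited, a mean of size-factor-normalized counts. The deposited fold change and its SE are log2 values. The deposited Wald statistic is a score, the fold change divided by its SE. The p-values are the authors' deposited two-sided Wald values, raw and Benjamini-Hochberg adjusted. Recomputing that adjustment over 19257 genes differed by at most 5.17e-06. The table has 0 columns per sample, so edgeR or other count models and leaving out libraries were not run, and depth in reads is unknown. Of 36351 genes, 4014 had a base mean of 0.

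Symbols were matched exactly, taking the entry with the highest base mean. All 10 members matched RefSeq gene names (GRCz12tu) by Entrez identifier. Named genes were every member, called genes of each list (or the one with the smallest p), and a set of known pathway genes. Gene families were added after values were seen. Intervals are 1.96 deposited SE on either side of the deposited fold, except where shrinkage is said to be undone. P-values reflect only how these pools vary, and the pools came from 3 experimental replicates that the labels do not tie to libraries. Steps were tested on simulated data. There the SE before shrinkage was known, so the choice between solutions when shrinkage is undone was not tested. The software was Python 3.11.15 with numpy 2.4.6, statsmodels 0.14.6, scipy 1.17.1, pandas 2.3.3 and matplotlib 3.10.9. No sequences are printed.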

Additional observations from a re-analysis of the deposited data

How the results depend on the processing

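No paired analysis was possible because the table holds no value per library. TMM scaling, other count tests and leaving out replicates were not run for that reason, and no member had a second entry to combine. The 9 alternatives that could be run (8 planned, 1 added after seeing the data) recomputed results from the deposited statistics. Whether a member changes sign says little here, since most alternatives keep the deposited sign by construction. Those that shift the folds were run only on genes with an adjusted p. That leaves out pth1a, stc1, pth1b and casr, and pth1a and casr each entered 1 alternative only. Of the 10 genes, fgf23 passed in all 8 alternatives in which it was tested, with adjusted p between 1.61e-07 and 6.42e-04 from the DESeq2 statistics. These include undoing the shrinkage, which keeps the deposited adjusted p of every gene (1.61e-07 for fgf23), so passing there was certain. It was not tested with a base mean of at least 100. The calls of stc2a, trpv6 and slc34a1a were lost with the Benjamini-Yekutieli adjustment (adjusted p of 0.226, 0.0889 and 0.0845) and under an empirical null that rescales each Wald statistic by the spread over all tested genes (0.344, 0.223 and 0.216), which left 1 member called in each. That of stc2a was also lost after a shift of 0.05 log2 units that equalizes the summed base means (adjusted p = 0.0723). Over all genes 516 calls became 216 with Benjamini-Yekutieli and 121 under the empirical null. The shift left 572 calls but 37.9% of them negative, against 71.7% as deposited. Of the other genes of calcium and phosphate balance, 2 were called as deposited, 0 with Benjamini-Yekutieli and 0 under the empirical null, 1 with adjustment over every gene with a p-value, 1 with the trend on gene span removed (added), and 4 after the shift, where fgfr1a and slc9a3r1b joined. The call of enpp1 was lost in 4 alternatives. Why the centring changes the balance of signs was not tested. Low counts limit pth1a, casr, stc1 and pth1b.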
